A study of Mus musculus with 12 samples.

Results

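Among 6 libraries of germinal center B cells from treated mice, 3 stood apart, and what sets them apart is described here gene by gene. Their count columns are headed S37 (light zone treated replicate 2), S38 (dark zone treated replicate 1) and S39 (dark zone treated replicate 2). The other 3 treated libraries are headed S7 (dark zone treated replicate 3), S8 (light zone treated replicate 3) and S26 (light zone treated replicate 1). The series holds 12 libraries, so S37 to S39 are 3 of 12, and the 6 untreated libraries serve as reference ranges. S37 to S39 were picked from these same expression values, by their place on the first principal component in earlier work. Every difference below between S37 to S39 and S7, S8 and S26 is therefore a description of libraries chosen for differing, and no test is given for it. No label says that the numbers in the column headings mark a batch.

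All mice were NZBWF1/J, an F1 hybrid strain that develops a disease like lupus. Treated mice received 6 doses each of 200 ug CTLA4-IG and 250 ug Anti-CD40L over 2 weeks beginning at 18 weeks of age, whereas controls received nothing. CTLA4-IG is a fusion protein that binds CD80 and CD86, and Anti-CD40L blocks the T cell ligand of CD40. Spleen B cells were enriched by negative selection and sorted by flow cytometry into dark zone and light zone germinal center cells. Each library was made from 1000 cells, with full-length cDNA from the SMART-Seq v4 kit. Each group by zone and treatment holds 3 libraries. S37 to S39 hold 2 dark zone libraries and 1 light zone library, the other treated set the reverse, so values that differ by zone do not compare evenly between the sets. The labels do not say whether replicates came from separate mice, so any spread given is that between libraries.

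Germinal centers are the sites where B cells improve their antibodies: the dark zone is the place of division and of mutation of antibody genes, and the light zone that of selection by antigen and by helper T cells. Both states share a B cell program (Cd79a, Cd79b, Ms4a1), and the sorted cells should hold little RNA of macrophages, neutrophils, T cells or red blood cells. When cDNA is made from few cells, each transcript has to be copied into full-length cDNA and amplified before it is read. The length of a transcript and its content of the bases G and C are therefore properties along which such libraries are commonly compared.

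A gene was counted as separated where all 3 values of S37 to S39 lay above, or all below, those of S7, S8 and S26 and the medians differed at least 2-fold. Values are CPM, the usual scaling of counts to the total of each library, and log2 differences are differences of the set medians of log2(CPM + 1). By this rule 3967 of 12212 genes (32.5%) were higher in S37 to S39 and 961 (7.87%) were lower. These 2 percentages are the background for every count of list members by library size below, but they are not matched to the level of a list. By TMM, another scaling, fewer of all genes were higher and more were lower. Counts of list members by TMM thus have a different background, given in the closing section. Among genes with a mean of 1 to 5 CPM over the 12 libraries, 40.8% were higher and 1.94% lower. Among those of 100 to 1000 CPM, 14.6% were higher and 28.8% lower. Without the 2-fold limit 4978 genes (40.8%) lay higher and 1810 (14.8%) lower. Of the separated genes, 2643 (21.6% of all) also lay above all 6 untreated libraries and 742 (6.08%) below all of them. Just inside the limit lay Psmb1, a proteasome subunit, with medians of 591 CPM in S37 to S39 and 1185 CPM in the other treated libraries. Just outside lay Trappc3, a subunit of a vesicle tethering complex, with medians of 71.8 and 35.4 CPM.

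The balance of higher and lower genes depended on the scaling. Of the separated genes, 80.5% were higher with scaling to library size, 55.9% with TMM sizes and 55.5% with DESeq2 size factors. The median log2 difference of all genes was 0.74 by library size, 0.23 by TMM and 0.22 by DESeq2 size factors. Differences of lists and of gene classes are therefore given relative to the median of all genes, as "relative log2 difference". Within the dark zone (S38 and S39 against S7) that median was 0.54, and within the light zone (S37 against S8 and S26) it was 0.87. In both zones 9622 of the 12212 genes had a difference of the same sign.

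The coding starts of genes with some of the widest gaps between the sets are given as examples of base content at the higher and the lower ends. The first 90 coding bases follow for Dohh, Bop1 and Ctsd (higher in S37 to S39) and for Cenpk, Cetn3 and Actr6 (lower), and then all 150 coding bases of Tmsb4x (lower), with G and C in capitals. They are the 3 genes of most extreme gap in each direction that have a coding sequence. The sequences run 5′ to 3′ along the coding strand and were read from GENCODE M21 on GRCm38 (mm10).
Dohh: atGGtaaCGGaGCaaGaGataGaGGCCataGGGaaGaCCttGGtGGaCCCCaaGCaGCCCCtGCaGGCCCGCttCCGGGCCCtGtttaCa
Bop1: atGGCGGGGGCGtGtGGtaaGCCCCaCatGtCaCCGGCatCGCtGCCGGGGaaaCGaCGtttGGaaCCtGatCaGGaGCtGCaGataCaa
Ctsd: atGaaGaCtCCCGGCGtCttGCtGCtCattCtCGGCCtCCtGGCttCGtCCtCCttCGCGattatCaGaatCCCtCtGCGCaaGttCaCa
Cenpk: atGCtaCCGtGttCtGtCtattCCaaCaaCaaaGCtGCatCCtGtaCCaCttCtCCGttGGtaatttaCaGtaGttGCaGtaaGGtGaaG
Cetn3: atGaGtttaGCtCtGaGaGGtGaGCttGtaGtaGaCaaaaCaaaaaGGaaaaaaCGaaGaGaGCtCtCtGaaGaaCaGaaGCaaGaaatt
Actr6: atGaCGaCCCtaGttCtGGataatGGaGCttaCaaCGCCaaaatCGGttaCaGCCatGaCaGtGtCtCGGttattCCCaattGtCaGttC
Tmsb4x: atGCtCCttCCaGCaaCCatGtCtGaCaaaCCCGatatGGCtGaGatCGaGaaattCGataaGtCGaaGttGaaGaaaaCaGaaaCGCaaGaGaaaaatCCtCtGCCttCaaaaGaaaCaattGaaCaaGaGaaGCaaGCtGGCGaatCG
Over their whole coding sequences, G and C made up 64.2% in Dohh, 58.6% in Bop1 and 53.0% in Ctsd. They made up 36.4% in Cenpk, 40.7% in Cetn3, 40.5% in Actr6 and 42.7% in Tmsb4x. Each of the 3 higher genes was thus richer in G and C than each of the 4 lower ones. Not all genes with the widest gaps follow this. The longest transcript holds 46.5% G and C in Taf3 (higher) and 53.1% in Snhg20 (lower). The genes lie at chr10:81384428-81388352 (Dohh, plus strand), chr15:76452989-76477277 (Bop1, minus), chr7:142375911-142388038 (Ctsd, minus) and chr13:104228611-104252392 (Cenpk, plus). Cetn3 lies at chr13:81783077-81797155 (plus), Actr6 at chr10:89711971-89732295 (minus) and Tmsb4x at chrX:167207093-167209315 (minus). Exons of Dohh, Bop1, Ctsd and Cenpk share 972, 50, 808 and 233 bases with Gm48551, Mroh1, Gm49369 and Ppwd1, and since the kits do not keep the strand, such reads can come from either gene.

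Total counts overlapped between the sets. Totals were 21907505 to 26837714 counts in S37 to S39 and 19392252 to 26508527 in the other treated libraries. The number of symbols with a count did differ, with 12188 to 12195 in S37 to S39, 11422 to 11689 in the other treated and 11384 to 11960 in untreated libraries. With each library thinned to the lowest total of the 12, the expected medians were 12186 in S37 to S39 and 11379.9 in the other treated libraries. Symbols with at least 10 CPM numbered 7912 to 8329, against 5918 to 6519 and 5712 to 6745. The 100 genes with most counts took 26.9 to 28.4% of counts in S37 to S39, against 30.4 to 32.0% in the other treated and 30.6 to 33.0% in untreated libraries. Counts in S37 to S39 were thus spread over more genes, at totals that overlapped those of the other treated libraries.

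**Figure D1:**
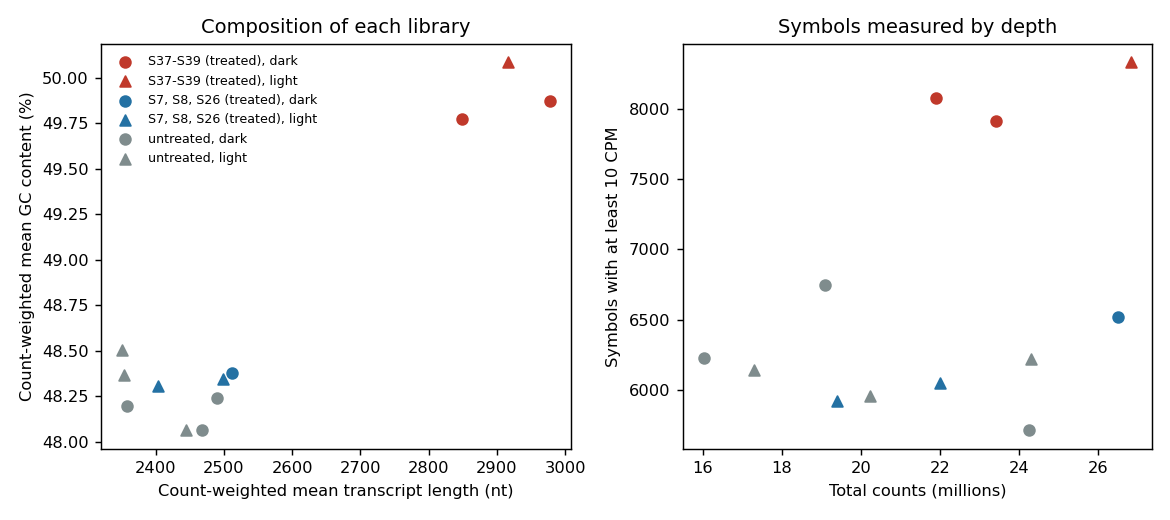
Composition of the 12 libraries. Left, mean G and C content (y, %) against mean transcript length (x, nt), both weighted by counts. Right, symbols with at least 10 CPM (y) against total counts (x). Each point is a library (circle, dark zone; triangle, light zone). S37 to S39 lie at 2849 to 2977 nt and 49.8 to 50.1%, apart from the 9 others in both panels.

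The 3 libraries also resembled each other more closely than other libraries of 1 set did. They were picked by their place on the first principal component of these values, so some likeness is built into the choice. The Spearman correlation between 2 libraries over all 12212 genes was 0.963 to 0.977 among S37 to S39, although these mix both zones. It was 0.752 to 0.779 among the other treated libraries, 0.671 to 0.774 between the sets, and 0.762 to 0.876 among untreated libraries. The median SD of log2(CPM + 1) across a set was 0.256 in S37 to S39, 0.585 in the other treated set, 0.573 in dark zone control and 0.579 in light zone control. Genes that reached 20 CPM in a library and stayed under 1 CPM in another of the same set numbered 6 of 6857 in S37 to S39. They numbered 866 of 6302 in the other treated set, 529 of 6041 in dark zone control and 556 of 6021 in light zone control. A gene seen in 1 of S37 to S39 was thus nearly always seen in the others, whereas elsewhere genes were often present in 1 library and near 0 in the next.

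In all, 54 genes had at least 20 CPM in each of S37 to S39 and under 1 CPM in each of S7, S8 and S26, and 0 genes showed the reverse. Of the 54, 5 were also under 1 CPM in all 6 untreated libraries, namely Irs2, Lrrc47, Btbd9, Ncdn and Nfkbil1. Irs2, the adaptor of the insulin receptor, read 31.1, 84.0 and 53.1 CPM in S37, S38 and S39, 0.04 to 0.10 CPM in the other treated and at most 0.08 CPM in the untreated libraries. At these depths 3 counts correspond to 0.112 to 0.137 CPM in S37 to S39 and 0.113 to 0.155 CPM in the other treated libraries, which covers counting error only. Irs2 in S7, S8 and S26 therefore lay below the level of 3 counts. Ncdn and Nfkbil1 had no count in S7, S8 or S26 and read 22.6 to 37.3 and 26.3 to 33.1 CPM in S37 to S39.

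The gap was widest for Rn45s, the precursor of ribosomal RNA, which carries no poly(A) tail in its mature form. Rn45s read 814, 1263 and 635 CPM in S37, S38 and S39, and 6.68, 9.18 and 7.99 CPM in S7, S8 and S26. Untreated libraries gave 5.18 to 14.6 CPM, so the other treated libraries lay within the untreated range and S37 to S39 far above it. The medians of the sets differed 90.6-fold (log2 difference 6.50). Of the 12 genes with the widest gaps in this direction, 11 code for protein. They include Dohh (deoxyhypusine hydroxylase, which modifies the translation factor eIF5A), Bop1 and Nop2 (ribosome assembly), Vars (valyl-tRNA synthetase), Ctsd (the lysosomal protease cathepsin D), Taf3 (a TFIID subunit), Dedd2, Ncln, Uap1l1, 1700017B05Rik and Irs2. Dohh read 122, 117 and 143 CPM against 1.21, 1.14 and 0.93 CPM. Vars read 336, 378 and 322 CPM against 9.66, 2.64 and 8.87 CPM. The sets were far apart in both genes, but Dohh reached 60.8 CPM in an untreated library. For Bop1, Ctsd, Uap1l1, Taf3, Dedd2, Ncln and Nop2 the untreated maxima were 6.23 to 25.3 CPM, below the lowest value in S37 to S39 of each.

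In the other direction, the 12 genes with the widest gaps were of several kinds, and only some of them code for parts of centromeres, centrioles or the spindle. Cenpk, a centromere protein, read 15.5, 19.5 and 20.2 CPM in S37, S38 and S39 against 195, 160 and 194 CPM in S7, S8 and S26. Cetn3, a centriole protein, read 135, 128 and 141 CPM against 855, 931 and 855 CPM. Actr6, an actin-related subunit of a chromatin remodeler, read 14.2, 11.8 and 18.3 CPM against 133, 140 and 108 CPM. In these genes the spread within a set was small beside the distance between the sets, and all but 1 of the untreated ranges lay wholly above S37 to S39, the exception being Actr6 (15.8 to 198 CPM). The other 9 were Cenpq and Spc25 (centromere and kinetochore), Haus3 (an augmin subunit of the spindle), Ube2v2 (a ubiquitin enzyme variant), Snhg5 and Snhg20 (hosts of small nucleolar RNAs), Gt(ROSA)26Sor, 2310001H17Rik and Gm16702. Their log2 differences ran from -3.12 in Gt(ROSA)26Sor to -2.47 in Ube2v2.

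**Figure D2:**
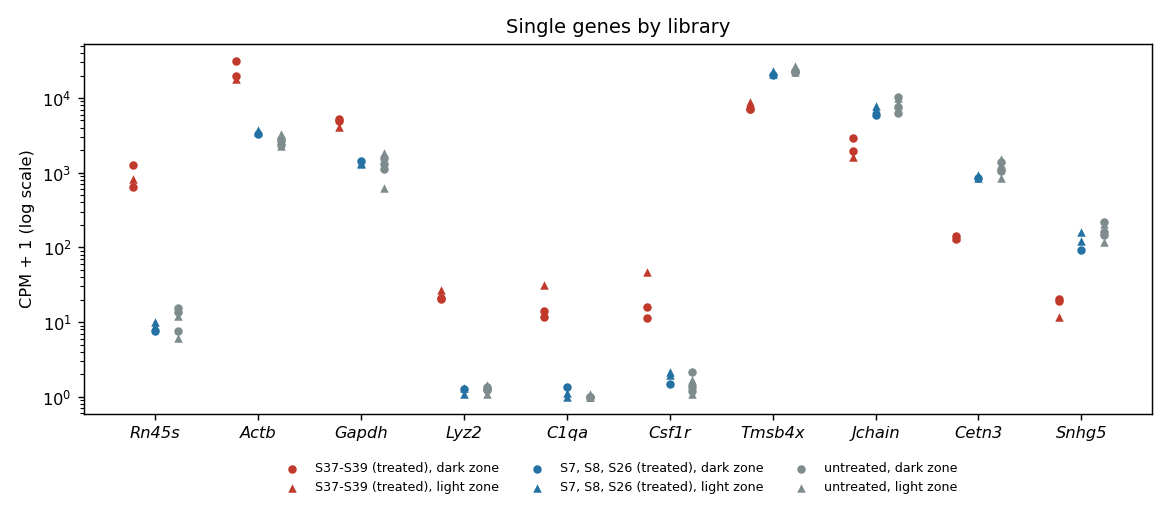
CPM + 1 (y, log scale) of 10 genes in each of the 12 libraries, for the 5 marker genes and 5 others named by the rule. Points are libraries (circle, dark zone; triangle, light zone). In each of the 10 genes S37 to S39 do not overlap the other treated libraries, as in Rn45s (635 to 1263 against 6.68 to 9.18 CPM).

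Across genes the difference followed base content. The log2 difference correlated with the G and C content of the longest annotated transcript with a Spearman coefficient of 0.318 over 12102 genes, 0.290 within the dark zone and 0.316 within the light zone. In the decile of genes with least G and C (31.0 to 41.2%), the relative log2 difference was -0.86, with 11.5% of genes higher and 16.4% lower. In the decile with most (57.5 to 75.9%), it was 0.84, with 52.2% higher and 2.81% lower. Genes within 1 library are not independent replicates, so these are descriptions of the libraries. Among the 5331 genes with a mean of at least 20 CPM, the coefficient was 0.347. In single pairs of libraries, the correlation of the difference with G and C content was 0.2499 to 0.306 for the 9 pairs across the sets. It was 0.065 to 0.176 among S37 to S39, and at most 0.103 in size among untreated pairs and 0.032 among the other treated pairs.

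The same appeared in the share of counts. The decile of genes with least G and C took 7.03 to 7.75% of counts in S37 to S39, 12.2 to 12.7% in the other treated and 12.3 to 13.8% in untreated libraries. The mean G and C content weighted by counts was 49.8 to 50.1%, against 48.3 to 48.4% and 48.1 to 48.5%. S37 to S39 thus lay outside a narrow range that the 9 other libraries shared.

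Transcript length went with the difference as well, but not in a straight line. The Spearman correlation with the length of the longest transcript was 0.191 over 12102 genes, and with the coding length 0.258 over the genes that have one. For the 9 single pairs of libraries across the sets, the correlation with transcript length was 0.144 to 0.202. Among S37 to S39 it was -0.062 to 0.185, with the highest value between S38 and S39, and so overlapped that range. It was at most 0.042 among the other treated pairs, and untreated pairs also lay below that range. By this measure length did not divide the sets as G and C content did. In the decile of genes with the shortest transcripts (65 to 1281 nt) the relative log2 difference was -1.07, with 9.91% higher and 23.9% lower. It was highest, 0.37, in the eighth decile (4416 to 5228 nt) and fell back to 0.03 in the decile with the longest transcripts. By coding length, the shortest decile (111 to 528 nt) stood at -1.34, with 8.48% higher and 31.5% lower, and the longest at -0.01. The deficit was thus marked for short transcripts, while the longest transcripts lay at the level of all genes. The shortest decile took 19.5 to 21.1% of counts in S37 to S39, 31.0 to 34.1% in the other treated and 33.0 to 37.2% in untreated libraries.

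**Figure D3:**
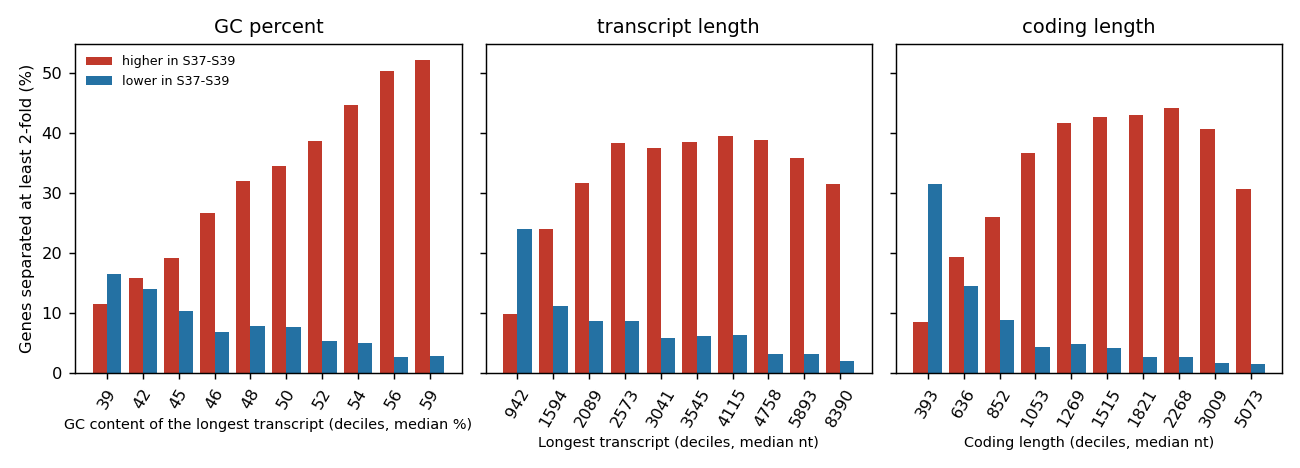
Percent of genes separated at least 2-fold (y) in deciles of all genes ordered by G and C content, transcript length or coding length (x, the median of each decile). Red bars are genes higher in S37 to S39 and blue bars genes lower. The red bars climb from 11.5% to 52.2% along G and C content, and the blue bars are tallest for the shortest coding sequences, at 31.5%.

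Base content and length were themselves related (Spearman correlation -0.235 over 12102 genes, with longer transcripts poorer in G and C). With the genes split into tertiles of both, the relative log2 difference was -1.23 in short genes of low G and C content (911 genes, 7.46% higher, 27.8% lower). It was 1.18 in genes of middle length and high G and C content (1267 genes, 62.7% higher, 1.74% lower). Within each tertile of length the difference was larger at high than at low G and C content, and within each tertile of G and C content it was smallest in short genes. Each property thus went with the difference at a like value of the other. The level went with it as well, with a Spearman correlation of -0.288 against the mean CPM of the 12 libraries. Genes of 5 to 20 CPM had a median log2 difference of 1.27, those of 100 to 1000 CPM -0.44 and those of at least 1000 CPM -0.47.

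Genes annotated as protein coding had 33.3% higher and 7.65% lower (11536 genes), close to the background. Long intergenic RNAs had 12.4% higher and 15.9% lower (145 genes) and a relative log2 difference of -0.79. Antisense RNAs had 15.8% higher and 12.03% lower (133 genes). Among 16 hosts of small nucleolar RNAs, spliced RNAs whose introns carry the small RNAs that guide changes to ribosomal RNA, 0 were higher and 7 lower, with a relative log2 difference of -1.87. Gas5 read 11.7, 8.58 and 6.19 CPM against 20.1, 54.6 and 78.7 CPM, and Snhg5 read 10.8, 19.5 and 18.2 CPM against 92.8, 159 and 121 CPM. All 7 (Gas5, Snhg3, Snhg4, Snhg5, Snhg9, Snhg15 and Snhg20) lay lower in each of S37 to S39 than in each of the other treated libraries. These hosts lay low while the ribosomal RNA precursor lay high in the same libraries. Malat1, a nuclear RNA, did not separate, with 1884 to 2579 CPM against 1776 to 2667 CPM.

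Of the 49 lists, that of the respiratory chain with ATP synthase, the mitochondrial machinery that makes ATP, held the most genes that lay lower. Of 79 measured, 8 were higher and 42 lower, and the relative log2 difference was -1.77. Their summed CPM was 25495 to 30225 in S37 to S39, 47493 to 50721 in the other treated and 51358 to 60882 in untreated libraries. The members that lay higher were the long ones, with a median coding length of 1390.5 nt and 53.8% G and C, while the lower ones had a median of 321 nt and 48.6%. Atp5b, the catalytic subunit of ATP synthase, read 2443, 2565 and 2838 CPM against 606, 593 and 345 CPM. Atp5j, a small stalk subunit of the same enzyme, read 495, 658 and 578 CPM against 2275, 2195 and 1934 CPM. Subunits of a single enzyme thus lay on opposite sides. Sdha and Ndufv1 were also higher and Ndufa4 and Cox7c lower, examples chosen after their values were seen. Cox7c, of 189 coding bases, read 251, 320 and 356 CPM against 989, 991 and 1100.1 CPM.

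Other complexes of mostly small proteins showed a like split by coding length. Of 78 mitochondrial ribosomal proteins 6 were higher and 24 lower (relative log2 difference -1.39), with median coding lengths of 1029 and 462 nt. Of 31 proteins of small nuclear ribonucleoproteins, which splice RNA, 3 were higher and 12 lower (-1.55), with medians of 2634 and 333 nt. Of 47 proteasome genes 5 were higher and 8 lower (-0.92), with medians of 1590 and 721.5 nt. Among all genes with a mean of 100 to 1000 CPM, 28.8% were lower. The share lower was 17.0% in the proteasome list, below that, and 30.8% in the mitochondrial ribosomal proteins, near it. It was 38.7% in the small nuclear ribonucleoproteins. The median mitochondrial ribosomal protein gene read 88.3 to 92.9 CPM in S37 to S39 and 133 to 151 CPM in the other treated libraries. In each of these lists the higher members had the longer coding sequences. By longest transcript the mitochondrial ribosomal proteins went the other way, with medians of 1957.5 nt in the higher and 2343 nt in the lower members. The higher members were also richer in G and C in each list, with medians of 50.8% against 46.8% in the mitochondrial ribosomal proteins. Snrpg, a core splicing protein, read 289, 414 and 418 CPM against 878, 878 and 1120.5 CPM, and Mrpl42 read 179, 161 and 214 CPM against 699, 905 and 963 CPM.

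The 85 cytosolic ribosomal proteins mostly did not separate. By library size 6 were higher (Rpl3, Rpl8, Rps2, Rps4l, Rps12 and Rpsa) and 2 lower (Rps14 and Rps27l). By TMM 3 were higher and 15 lower, so the balance turned with the scaling. The share lower by TMM was near that of all genes by TMM, and the share higher was below it. The relative log2 difference was -0.74. Rpsa read 3443, 4822 and 3412 CPM against 1069, 1004 and 1483 CPM. The sets thus did not overlap in Rpsa. Many ribosomal protein genes have near-identical processed copies, so their counts are uncertain. Among translation factors 22 of 63 were higher (34.9%, close to the background) and 3 lower, with a relative log2 difference of 0.06, and by TMM 11 were higher and 10 lower. Eef2, which moves the ribosome along, read 1921, 2558 and 1746 CPM against 185, 85.7 and 110 CPM. Among 17 aminoacyl-tRNA synthetases, which load amino acids onto tRNA, 9 were higher and 0 lower, and their summed CPM was 1865 to 2034 against 631 to 934. By TMM 7 of them were higher and 1 lower.

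The glycolytic enzymes, which break down glucose, lay high as a group. Of 18, 15 were higher and 0 lower, and the relative log2 difference was 1.32. Their summed CPM was 11536 to 13582 in S37 to S39 and 3466 to 3827 in the other treated libraries, and the latter lay within the untreated range of 2091 to 4476. Gapdh read 4072, 4957 and 5234 CPM against 1421, 1310.1 and 1353 CPM. Pkm, the last enzyme of the path, read 1064, 923 and 1147 CPM against 119, 105 and 95.1 CPM. Slc2a1, the glucose transporter GLUT1, read 43.8, 30.4 and 36.7 CPM against 0.11, 0.14 and 0.52 CPM. The treated libraries of both zones thus split by set and not by zone. Bpgm, Hk2 and Pfkm were the 3 that did not separate. The 15 higher members had a median coding length of 1302 nt and 53.0% G and C, and the part of these properties in the result was not tested.

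Several genes of actin and tubulin, the filaments of the cytoskeleton, were higher. Actb read 17786, 19680.2 and 31486 CPM in S37, S38 and S39 against 3304, 3510.4 and 3748 CPM in S7, S8 and S26, and 2305 to 3260.2 CPM in untreated libraries. Actg1 read 4372, 3728 and 5474 CPM against 1921, 1785 and 1333 CPM. Among the 27 actins and actin regulators 12 were higher and 1 lower by library size (relative log2 difference 0.24, and 0.08 within the dark zone), but 8 were higher and 7 lower by TMM. Pfn1 and Cfl1, which bind actin monomers and sever filaments, did not separate. Among 17 tubulins 9 were higher and 0 lower (0.44), and 5 and 1 by TMM. Tmsb4x, a short thymosin that holds actin monomers, went the other way, at 8886, 7215 and 7125 CPM against 20623, 21213 and 22828 CPM. Untreated libraries had 22174 to 26427 CPM of it. Actb and Tmsb4x thus lay on opposite sides in all 6 treated libraries. Counts of actins and tubulins can be split among pseudogenes and near-identical copies.

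Genes of antigen presentation by MHC class I, which displays peptides from inside the cell, showed 11 of 16 higher and 1 lower. H2-D1 read 2451, 1445 and 1593 CPM against 225, 210 and 290 CPM, and Tap2, a chain of the peptide transporter, read 220.0, 140.2 and 152 CPM against 1.13, 17.7 and 0.93 CPM. B2m, the short invariant chain that pairs with H2-D1, was the member that lay lower, at 1527, 901 and 1684 CPM against 2460, 3075 and 3355 CPM. The heavy chain genes are a multigene family, so reads may be split among them. Of 11 MHC class II genes 2 were higher and 0 lower, with a relative log2 difference of -0.82, and by TMM 2 were higher and 2 lower. Ciita, the master activator of class II genes, read 273, 211 and 141 CPM against 7.54, 36.1 and 24.96 CPM, while Cd74 overlapped between the sets. H2-Eb1, a class II chain, was also higher, at 4655, 2658 and 3337 CPM against 1175, 1243 and 808 CPM. H2-Ab1 did not overlap either (3410, 2060.5 and 2158 CPM against 1005, 1344 and 1171 CPM) but stayed under the 2-fold limit. The class II genes were thus mixed.

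Lists of long genes did not share a direction. Of 24 chromatin regulators with long transcripts 15 were higher and 0 lower (relative log2 difference 0.70), and 6 and 0 by TMM. Of 78 kinesins, dyneins and myosins, the motor proteins of the cytoskeleton, 21 were higher (26.9%) and 4 lower (5.13%), with a relative log2 difference of -0.19. By TMM 14 of them were higher and 13 lower, near the shares of all genes by TMM. Smarca4, the ATPase of a chromatin remodeler, read 261, 726 and 439 CPM against 102, 29.96 and 5.05 CPM. Among 15 giant ubiquitin enzymes 6 were higher and 0 lower (0.27), and by TMM 4 were higher and 1 lower. Among 342 zinc finger proteins 112 were higher and 19 lower, or 32.7% and 5.56%, close to the background. The DNA replication list had 11 higher and 4 lower of 25, and its median changed sign with the scaling (0.66 by library size, -0.06 by TMM and -0.10 by DESeq2 size factors). Pcna, the clamp of DNA polymerase, read 448, 442 and 597 CPM against 1036, 1282 and 1087 CPM, whereas Mcm5, a helicase subunit, read 524, 533 and 602 CPM against 99.6, 85.4 and 35.3 CPM. The list thus held genes far apart in both directions. Of 40 centromere and kinetochore genes 6 were higher and 10 lower.

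Genes that answer quickly to stimulation, the immediate early genes, had 9 of 19 higher and 0 lower (relative log2 difference 1.11). Jund read 249, 248 and 149 CPM against 14.6, 0.95 and 3.97 CPM, and Ier2 read 110.2, 33.7 and 32.1 CPM against 7.36, 0 and 0 CPM. Fos did not separate, at 8.496, 3.97 and 3.76 CPM against 15.6, 0.05 and 0.15 CPM. Of 21 genes of the interferon response 11 were higher and 0 lower (relative log2 difference 0.97), and by TMM 8 were higher and 1 lower. The summed CPM of that list was 492 to 643 in S37 to S39, 374 to 494 in the other treated and 701 to 917 in untreated libraries. By that sum the untreated libraries were thus above both treated sets, with Ifi27l2a and Ifi27 among the main terms. Of 27 genes of ribosome biogenesis and MYC 13 were higher and 1 lower (0.52), and Odc1, the first enzyme of polyamine synthesis, read 410.0, 315 and 415 CPM against 72.9, 94.8 and 76.7 CPM.

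**Figure D4:**
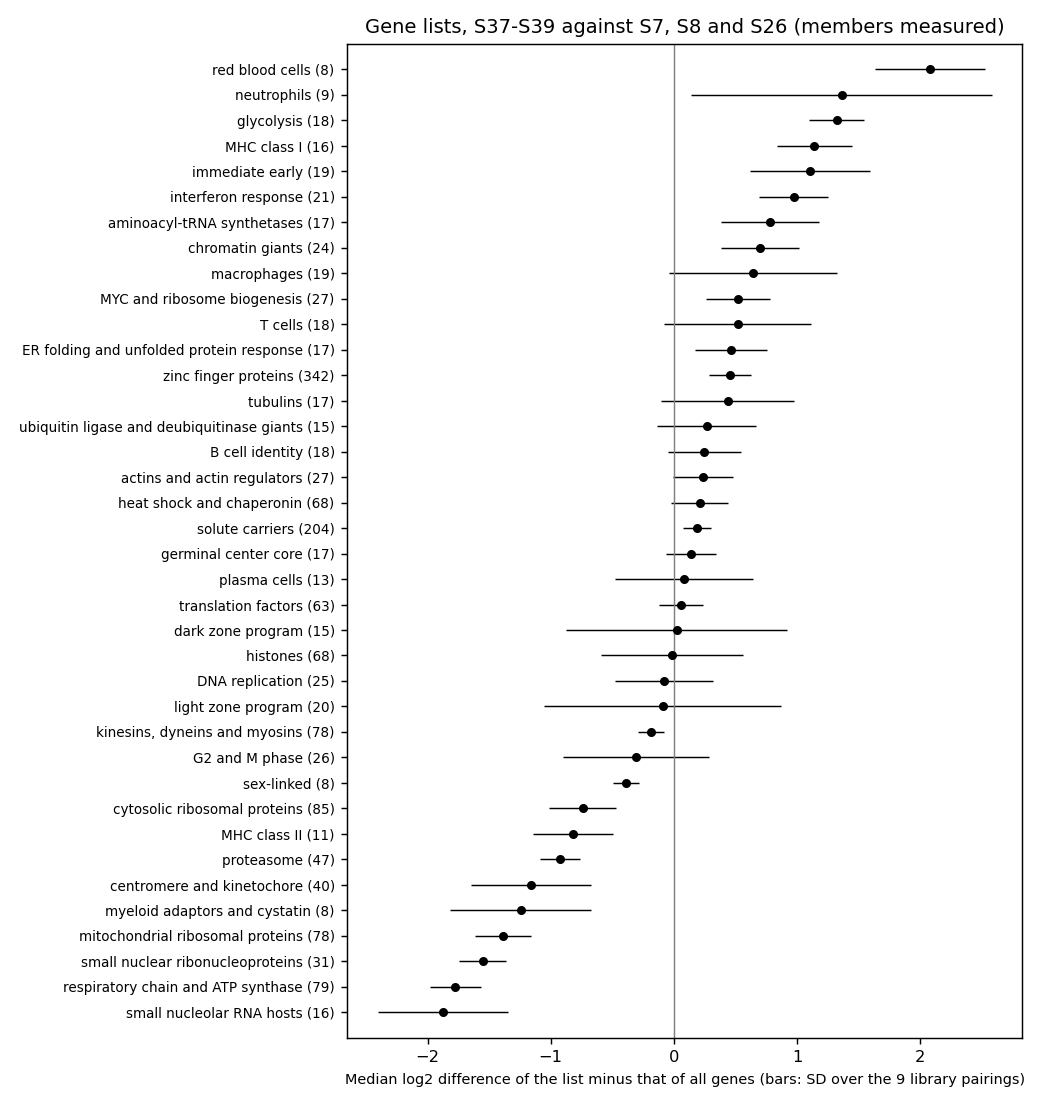
Median log2 difference of each gene list minus that of all genes (x) for the lists with at least 8 measured members (y, number in brackets). Bars are the SD over the 9 pairings of a library of S37 to S39 with S7, S8 or S26. Glycolysis (1.32) and MHC class I (1.14) lie to the right, the respiratory chain (-1.77) and hosts of small nucleolar RNAs (-1.87) to the left.

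The label of B cells held in all 6 treated libraries. Cd79a read 2395 to 3063 CPM in S37 to S39 and 2381 to 3031 CPM in the other treated libraries, and Ms4a1 read 1895 to 2774 against 2474 to 2790.3 CPM. Both overlapped between the sets. Of 18 B cell identity genes 8 were higher and 0 lower by library size, and 4 were higher and 1 lower by TMM. Pax5 read 16.4, 17.4 and 12.3 CPM against 4.41, 0.23 and 0.15 CPM. Of 17 germinal center genes 5 were higher and 2 lower, and 4 and 3 by TMM. S1pr2, the receptor that holds cells in the germinal center, read 431, 465 and 412 CPM against 131, 63.7 and 62.4 CPM, and Fas read 67.1, 57.7 and 57.8 CPM against 130, 202 and 229 CPM. Rgs13, the other lower member, read 366, 351 and 225 CPM against 1429, 1638 and 1620.3 CPM. The germinal center list was thus mixed, with its summed CPM overlapping (3990 to 5189 against 3926 to 4604).

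The zone labels could still be seen within S37 to S39. The light zone program summed to 3668 CPM in S37, which is a light zone library, and to 1104 and 1390 CPM in S38 and S39. The dark zone program summed to 2098 CPM in S37 and to 4309 and 4172 CPM in S38 and S39. Cd83, a light zone surface protein, read 905 CPM in S37 and 203 and 219 CPM in S38 and S39. Among the other treated libraries, the dark zone library S7 had 892 CPM of the light zone program and 4008 CPM of the dark zone program. The light zone libraries S8 and S26 had 1684 and 2135 CPM of the first, and 3321 and 2224 CPM of the second. Each dark zone library thus had more of the dark and less of the light program than each light zone library. Plasma cell genes had 3 higher and 2 lower of 13, with the joining chain gene Jchain at 1598, 1974 and 2911 CPM against 5845, 7872 and 7017 CPM.

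Several defining markers of macrophages were present at low levels in S37 to S39 and close to 0 in S7, S8 and S26. Others, such as Cd68 and Hmox1, were not near 0 in all of S7, S8 and S26. Lyz2, the lysozyme of myeloid cells, read 25.9, 19.4 and 20.3 CPM in S37, S38 and S39, 0.26, 0.09 and 0.31 CPM in S7, S8 and S26, and at most 0.46 CPM in untreated libraries. C1qa, a chain of complement C1q, read 30.2, 12.9 and 10.9 CPM against 0.34, 0.14 and 0 CPM. C1qc read 50.9, 19.2 and 16.5 CPM and had no count in S7, S8 or S26. Csf1r, the receptor for macrophage growth factor, read 45.9, 15.2 and 10.2 CPM against 0.49, 0.95 and 1.13 CPM, and its exons share 873 bases with Hmgxb3. In all of these S37, the light zone library, was the highest. In bulk RNA, more cells of a type and more RNA per cell cannot be told apart.

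Over the whole macrophage list, 11 of 19 genes were higher and 0 lower. The 11 include Vcam1, Slc40a1 and Spic, genes of the red pulp macrophages that recycle iron in the spleen. The summed CPM was 166 to 496 in S37 to S39, 36.0 to 103 in the other treated and 24.3 to 59.8 in untreated libraries. All 19 genes had a count in each of S37 to S39, as had 12188 to 12195 of all 12212 symbols. In each of the other treated libraries 3 of the 19 were at 0, though not the same 3 throughout. Of all symbols, 523 to 790 had no count in these libraries. Adgre1, Axl, Cd68, Hmox1, Marco, Mertk, Timd4 and Fcgr1 did not separate. Cd68 read 28.4, 12.4 and 17.6 CPM against 1.36, 10.9 and 27.95 CPM, and reached 32.6 CPM in an untreated library. Hmox1 read 51.5, 27.2 and 20.1 CPM against 11.6, 0 and 26.5 CPM. Of 8 myeloid adaptor genes 2 were higher (Spi1 and Fcgr3) and 1 lower (Lst1), with a relative log2 difference of -1.25, and by TMM 1 was higher and 4 lower. Tyrobp and Ctss, also common in myeloid cells, overlapped between the sets, so the myeloid lists did not move as 1 block.

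Neutrophil genes set S37 apart from S38 and S39. S37 is the only light zone library among S37 to S39, so zone and single library cannot be told apart here. S100a8, an alarmin of neutrophil granules, read 0.11 CPM in S37, 11.1 CPM in S38 and 20.02 CPM in S39, and had no count in S7, S8 or S26. Ngp, a granule protein, read 0.34, 11.05 and 25.6 CPM, again with no count in the other treated libraries. Camp, Ltf, Lcn2 and S100a9 were likewise highest in the dark zone libraries S38 and S39. S37 lay at or below 1.04 CPM in each of these 6 genes and so had almost none of them. Cxcr2, a neutrophil chemokine receptor, went the other way, at 5.10, 12.05 and 9.43 CPM against 40.3, 36.0 and 78.4 CPM, and reached 192 CPM in untreated libraries. Csf3r was also lower, which makes 6 higher and 2 lower of 9.

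**Figure D5:**
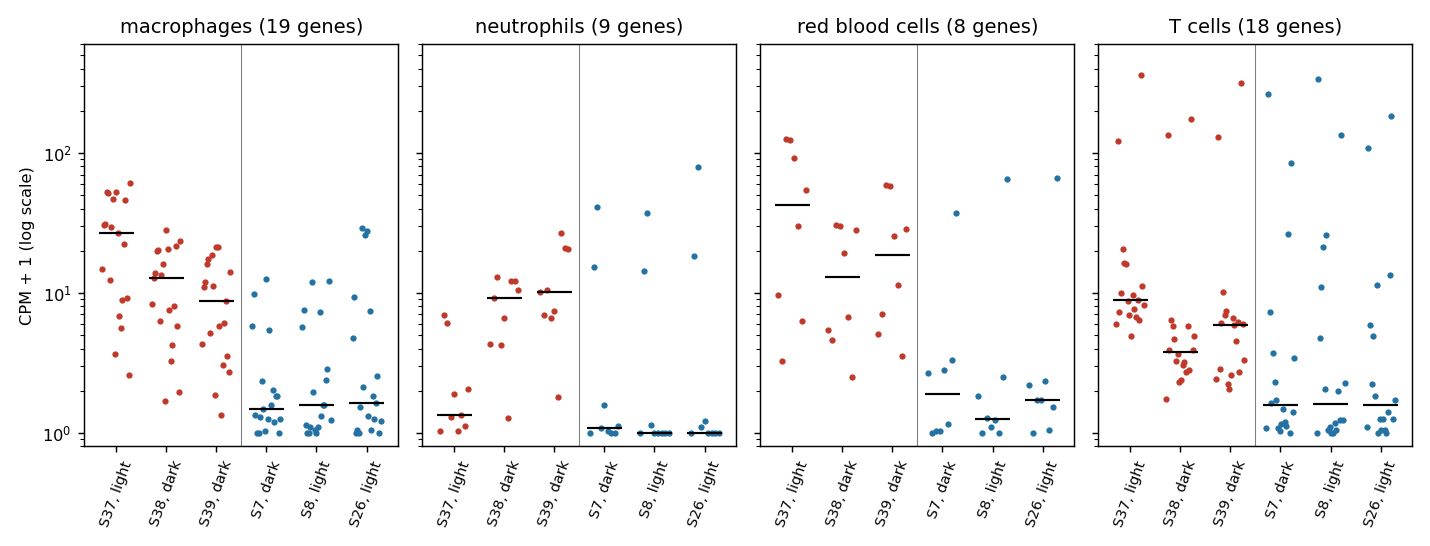
CPM + 1 (y, log scale) of every measured gene of 4 marker lists in the 6 treated libraries (x). Points are genes, black lines the median of the list in that library, red S37 to S39 and blue S7, S8 and S26. Macrophage medians lie higher in S37 to S39, and the neutrophil median is near 1 in S37 and higher in S38 and S39.

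Of the T cell list, Lck and Cd2 had the most counts and were present in all 6 treated libraries. Untreated libraries held 65.5 to 170 CPM of Lck and 64.8 to 198 CPM of Cd2. Whether this RNA came from T cells was not tested. Lck, a kinase of T cell receptor signaling, read 359, 175 and 314 CPM against 83.9, 134 and 182 CPM, and Cd2 read 120.2, 133 and 129 CPM against 261, 338 and 108 CPM. Both overlapped between the sets. Of 18 T cell genes 9 were higher and 0 lower by library size, and 7 were higher and 1 lower by TMM. Cd4 read 7.75, 2.65 and 1.24 CPM against 0.08, 0.05 and 0 CPM, and Cd8b1 read 8.68, 2.05 and 5.59 CPM against 0.49, 0 and 0.26 CPM. Cd3d and Cd28 overlapped through S8, which held 20.4 and 10.002 CPM of them. Cd3g overlapped through S8 and S26, at 15.2, 2.24 and 6.45 CPM against 0.72, 25.1 and 10.4 CPM. The summed CPM of the list, mostly Lck and Cd2, was 352 to 619 against 326 to 536 and so overlapped. All 4 measured natural killer genes (Gzma, Nkg7, Prf1 and Tbx21) were higher by library size, and 2 by TMM. Tbx21, the transcription factor T-bet, which B cells can also express, read 63.4, 35.1 and 55.0 CPM against 0.34, 0.68 and 0.36 CPM, and reached 23.1 CPM in an untreated library.

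Hemoglobin RNA, from red blood cells and their precursors, was also present in S37 to S39. Hba-a1 read 125, 29.6 and 58.0 CPM against 0.04, 0.27 and 0.72 CPM, and Hbb-bs read 90.2, 18.3 and 24.6 CPM against 1.81, 0.23 and 1.34 CPM. The 2 alpha genes have nearly the same sequence, so reads can be split between them. An untreated library, dark zone control replicate 1, held more, with 477 CPM of Hba-a1 and 210 CPM of Hbb-bs. Hemoglobin was thus not particular to S37 to S39. Of 8 genes of the red blood cell list 6 were higher and 0 lower by library size, and 5 were higher and 1 lower by TMM. Stroma and endothelium had 0 of 6 higher or lower by library size, and 0 higher and 2 lower by TMM. Platelet genes had 2 of 6 higher, but the median of that list changed sign with the scaling (0.49 by library size, -0.08 by TMM). Whether RNA of other cells, base content or transcript length accounts for any single difference above was not tested.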

How the data were processed

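Each of the 12 files was deposited with expected counts (estimated counts) for the same 12212 gene symbols, made by the authors with BWA on mm10, per the submitters' processing notes. For the version, the counting program and the annotation nothing is given in the sources used here. Values lie on or midway between whole numbers. Midway values (1251 to 1301 in S37 to S39, 724 to 952 in the other treated libraries) were rounded up, and blanks were read as 0. Totals of all 12 libraries were 16032746 to 26837714 counts. CPM were scaled to library size, with a pseudocount of 1 CPM on the log2 scale. TMM sizes came from edgeR 4.0.16 and size factors from DESeq2 1.42.0 in R 4.3.3, both as alternatives and without their tests. Other steps used Python 3.11.15, pandas 2.3.3 and scipy 1.17.1. The planned permutation test of library totals is not used, since 3 libraries against 3 cannot give a p under 0.1. Lengths, G and C content and coding sequences came from GENCODE M21 for 12102 symbols, of which 144 were matched by a synonym and 110 more were not found.

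Members and lists were chosen with earlier results of these data known, and 3 of the 49 lists (hosts of small nucleolar RNAs, centromere and kinetochore, aminoacyl-tRNA synthetases) were added after seeing these values. Genes named are the 5 markers (Lyz2, C1qa, Csf1r, Actb, Tmsb4x), the 12 separated genes per direction with a median of at least 50 CPM and the widest gap, and up to 4 members per list with the highest mean. Some genes that meet this rule are not reported here. Further members named were chosen after their values were seen. Alternatives were other scalings, pseudocounts, filters, folds and lengths, single zones and leaving out each library.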

Additional observations from a re-analysis of the deposited data

Results flagged for a closer look

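For 5 gene lists, S37 to S39 and the other treated libraries lay in opposite order in the 2 zones by summed CPM. The difference between zones was not tested in any of them, and each light or dark comparison has a set with a single library. The neutrophil list summed to 13.7 CPM in the light zone library S37, against 49.4 in S8 and 96.2 in S26, but to 64.4 and 103 CPM in the dark zone libraries S38 and S39, against 55.5 in S7. In S7, S8 and S26 most of that sum was Cxcr2 (40.3, 36.0 and 78.4 CPM) and Csf3r (14.4, 13.3 and 17.4 CPM), while S100a8 and Ngp had no count there. The dark zone program summed to 2098 CPM in S37, against 3321 in S8 and 2224 in S26, but to 4309 and 4172 CPM in S38 and S39, against 4008 in S7. Dendritic cell genes summed to 129 CPM in S37, against 21.96 and 39.5, but to 76.6 and 78.3 CPM in S38 and S39, against 125 in S7, where Flt3 alone read 121 CPM. Genes of stroma and endothelium summed to 66.1 CPM in S37, against 42.2 and 35.2, but to 44.9 and 42.9 CPM in S38 and S39, against 54.6. Testis genes, which B cells should hardly hold, summed to 4.96 CPM in S37, against 2.45 and 1.13, but to 6.07 and 3.37 CPM in S38 and S39, against 12.2.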

How the results depend on the processing

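No paired analysis was possible because no result across genes comes from a test and the sets share no complete run of replicate numbers within a zone. Genes higher in S37 to S39 numbered 3967, and 2629 with TMM sizes, 2610 with DESeq2 size factors, 2332 at 4-fold and 2643 when also above all untreated libraries. Genes lower numbered 961, and 2077, 2089 and 134 under the first 3 of these, so the balance of directions rests on the scaling. Of the 12212 genes, 2629 higher and 2077 lower are thus the background for counts of list members by TMM. Leaving out each library gave 3975 to 4871 higher and 993 to 1158 lower. Sets with fewer libraries overlap less easily, so these counts tend to rise and are no check of stability. The correlation with transcript length (0.191) was 0.139 by median transcript length, 0.258 by coding length and 0.296 in genes with 1 annotated transcript. The relative log2 difference of the shortest decile (-1.07) was -1.19 with a filter on low values, -1.26 in the light zone alone, -0.57 by median transcript length, -1.34 by coding length and -0.73 in genes with 1 transcript. That of the longest decile (0.03) lay near 0 and was -0.01 by TMM and by coding length, -0.05 in the light zone alone and -0.04 without dark zone treated replicate 1, so it has no stable sign. For G and C content, where alternatives were added after seeing the data, the dark zone alone gave a correlation of 0.290, with -0.72 in the lowest and 0.71 in the highest decile, and leaving out each library gave 0.76 to 0.94 in the highest. Of 539 values of lists under alternatives, 466 stayed within 1 SD of the main value over pairs of libraries and 72 moved further. The remaining one is the neutrophil list, which reversed in the light zone alone (-0.72, against 1.36). The pairs share libraries, so this SD is a rough guide and not a test. Of the 49 lists, 19 lay within 1 SD of 0 and were not read as differing from all genes. Among these, 12 lists (dark zone, light zone and core germinal center programs, plasma cells, dendritic cells, platelets, epithelium, translation factors, histones, giant ubiquitin enzymes, G2 and M phase, DNA replication) changed sign in 43 values, which ran from -0.83 to 0.78. Not counting a sign change from within 1 SD of 0 as a reversal was decided after seeing the data. Because the libraries were chosen for their values, the steadiness of a count says nothing of how other libraries would behave.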
